A study of Mus musculus with 9 samples.

Results

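The subject is a set of 10 genes that encode SR splicing factors, namely Srsf1, Srsf2, Srsf3, Srsf5, Srsf6, Srsf7, Srsf10, Srsf11, Tra2a and Tra2b, and the transcript forms listed for them. They were taken by symbol from the 45321 genes of the GENCODE M21 annotation of the mouse genome (build GRCm38) that occurred in the tables, and were selected on their gene counts and transcript forms in these same libraries, which differed with treatment. Their levels, folds and form shares are therefore given as descriptions, without p-values. All 10 passed the filter on low counts, as did 14011 genes in all.

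RNA was sequenced from splenic CD4+ T cells of C57BL/6 mice, a common inbred strain, purified without labelling the CD4+ cells themselves. The series asks how total CD4+ T cells respond to Compound 10, described there as an inhibitor of the complex between NFAT and AP-1, transcription factors that bind DNA together after T cell activation. The cells of every group were first held for 1 h, either with 12.5 µM Compound 10 or with DMSO, its vehicle. Stimulated cells (PI) then received 10 nM PMA, which activates protein kinase C, with 1 µM ionomycin, which admits calcium, for 2 h, and unstimulated cells (US) did not. There were 3 libraries of stimulated Compound 10 cells, 2 of stimulated DMSO cells, 2 of unstimulated Compound 10 cells and 2 of unstimulated DMSO cells. The labels do not say whether libraries of a group came from separate mice or cultures, so a p-value here reflects the spread of these libraries alone, which may be technical. No allele or transgene is named.

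SR proteins carry an RNA recognition motif and a tail of alternating serine and arginine residues. They bind exonic enhancers in a pre-mRNA and help the spliceosome to choose splice sites, and TRA2 proteins act in the same way with a tail on each side of the RNA-binding domain. Many SR genes contain an ultraconserved "poison" exon, or an intron that can be kept, whose inclusion brings an early stop codon. Such an mRNA can be removed by nonsense-mediated decay or held in the nucleus, and several SR proteins promote these forms of their own mRNA, which limits their amount.

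The stretches below are shown because they distinguish a decay-annotated form of 5 of the genes from the expressed coding transcripts of the same gene. Each runs from the first base of the distinguishing exon to the first in-frame stop codon of that form, read 5′ to 3′ on the gene's strand from the GENCODE M21 transcripts, with the stop codon in capitals. No base of these stretches lies in an exon of an expressed coding transcript of the same gene.
Srsf3-201 (chr17:29039454-29039487, plus strand, exon of 456 bases): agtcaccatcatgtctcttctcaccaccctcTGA
Srsf6-201 (chr2:162932815-162932966, plus strand, exon of 268 bases): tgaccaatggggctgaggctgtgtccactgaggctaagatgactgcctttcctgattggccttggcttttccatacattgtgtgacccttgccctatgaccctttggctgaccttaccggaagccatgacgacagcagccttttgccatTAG
Tra2b-206 (chr16:22259181-22259261, minus strand, exon of 276 bases): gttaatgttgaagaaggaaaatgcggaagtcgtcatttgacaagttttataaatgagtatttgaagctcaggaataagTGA
Srsf11-206 (chr3:158024209-158024231, minus strand, exon of 109 bases): ttcttttccctggttcagccTGA
Srsf5-208 (chr12:80947116-80947130, plus strand, extended exon of 266 bases): ggcttctctgtaTAG
The stop codon is TGA in Srsf3-201, Tra2b-206 and Srsf11-206, and TAG in Srsf6-201 and Srsf5-208.

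The annotation and the deposited tables did not hold the same version of every transcript. Of the 71 transcripts of the 10 genes in the tables, 64 had the same length as in GENCODE M21 and 7 did not. Srsf3-201 was listed with 1919 bases against 2594 in GENCODE M21, and Srsf3-205 with 910 against 2110. Smaller gaps were found for Srsf3-202 (2566 against 2618), Srsf3-204 (3986 against 4010), Tra2b-206 (1590 against 1687), Srsf7-201 (2279 against 2288) and Tra2a-201 (1828 against 1799). Whether the deposited Srsf3-201 and Tra2b-206 contained the exons printed above is not known, and no share of forms is therefore read from Srsf3. The share of Tra2b, which rests mostly on Tra2b-206, is given below with the same limit.

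Libraries held between 10669821 and 21852830 estimated counts, of which annotated ribosomal RNA took 1.78% to 26.3%. The library numbered 2 was the richer in ribosomal RNA in both DMSO groups, with 13.8% in stimulated and 26.3% in unstimulated cells. Markers of CD4 T cells summed to 2034 to 2094 CPM (counts scaled to a common library total by TMM) in stimulated Compound 10 cells, 1622 to 2005 in stimulated DMSO cells, 1190 to 1344 in unstimulated Compound 10 cells and 759 to 874 in unstimulated DMSO cells. The genes of this sum did not move together. In DMSO cells Trac was at 718 to 985 CPM when stimulated and 168 to 178 when unstimulated. Cd4 was at 77.2 to 88.9 CPM and 97.3 to 116 in the same groups, and at 77.2 to 166 over all libraries. Cd2 was at 99.9 to 135 CPM in stimulated Compound 10 cells and 201 to 203 in stimulated DMSO cells. Both CD8 markers summed to 4.41 to 7.33 CPM with Cd8a at 0 to 0.349, the 4 B cell markers to 18.8 to 57.7, and the 4 monocyte markers to 1.87 to 6.19. Both natural killer markers summed to 3.51 to 4.87 CPM in stimulated Compound 10 cells and 0.261 to 0.839 in stimulated DMSO cells. That difference came from Klrb1c, at 3.38 to 4.35 CPM against 0.209 to 0.36, while Ncr1 overlapped between these groups. The 2 neutrophil markers stayed at or under 3.24 CPM and the 2 erythroid markers at or under 9.49. Their part in the values below was not tested. In RNA from pooled cells, fewer cells of a type and less RNA per cell cannot be told apart.

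Per unit of length, Srsf2 and Srsf3 were the most abundant of the 10 in stimulated DMSO cells. Mean levels there, in TPM (which scales by transcript length and by library), were 377 ± 15.1 for Srsf2 and 344 ± 41.6 for Srsf3 (SD, n = 2), which did not differ beyond their spread. Tra2b followed with 224 ± 41.7 TPM, Srsf5 with 202 ± 47.7 and Srsf7 with 156 ± 43.0, and these neighbours were within their spread as well. Srsf6 (101 ± 4.36 TPM), Srsf10 (82.6 ± 8.10), Srsf11 (52.4 ± 4.45), Tra2a (39.7 ± 11.4) and Srsf1 (32.6 ± 4.0) stood lower, and Tra2a and Srsf1 lay within their spread. The order differed in stimulated Compound 10 cells, where Srsf3 averaged 36.5 ± 4.96 TPM (n = 3), below Tra2b (89.2 ± 16.7), Srsf5 (85.1 ± 12.6), Srsf10 (73.2 ± 13.0) and Srsf7 (64.9 ± 14.8), and not apart from Srsf11 (49.2 ± 16.3) beyond the spread. Srsf2 remained the highest there at 204 ± 23.2 TPM and Srsf1 was the lowest at 5.83 ± 0.443. In unstimulated cells Srsf2 again led, with 182 ± 7.19 TPM in Compound 10 cells and 297 ± 76.5 in DMSO cells, and Tra2a was at 4.28 ± 0.595 and 10.2 ± 4.59 TPM.

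**Figure D1:**
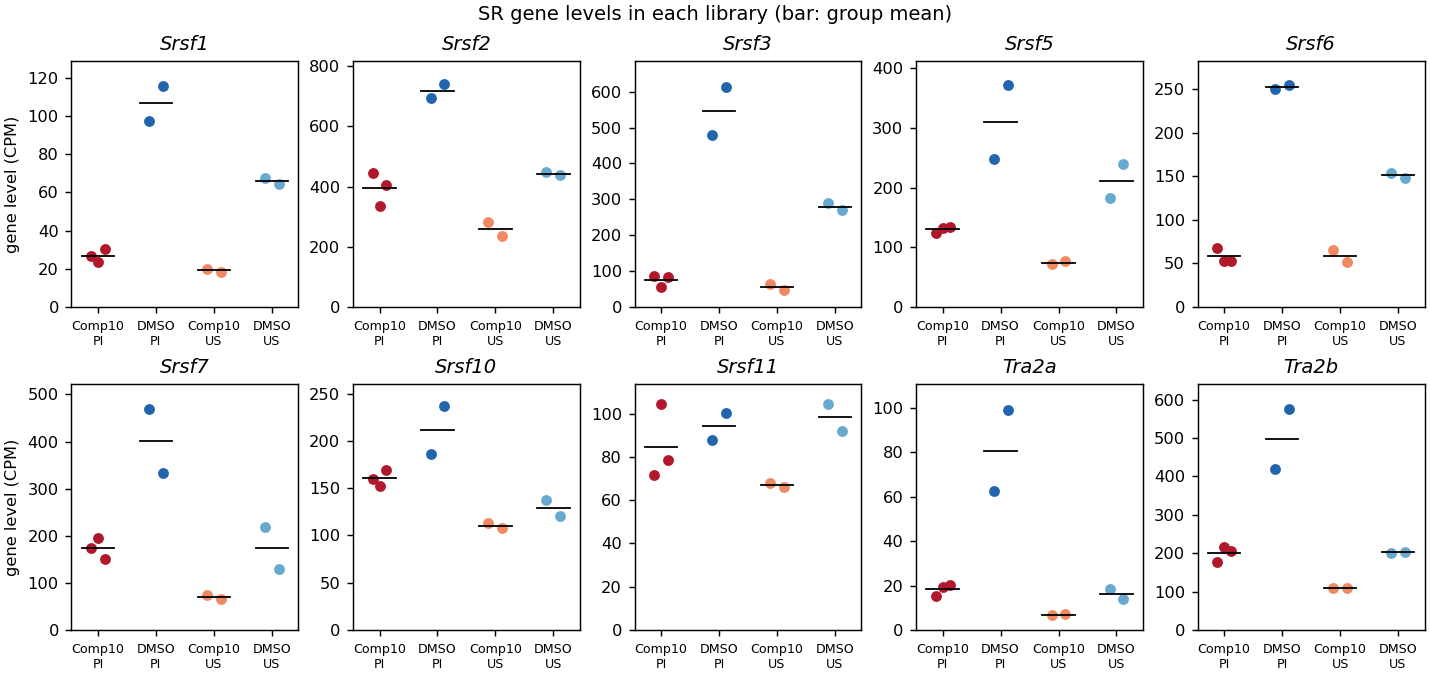
Gene level in CPM (vertical axis, from 0) of each of the 10 genes in every library. Points are libraries and bars are group means, with Compound 10 (Comp10) left of DMSO in stimulated (PI) and unstimulated (US) cells. In every gene but Srsf11 all Compound 10 libraries lie below all DMSO libraries of their state, and Srsf11 overlaps in stimulated cells. Srsf3 lies furthest apart in fold, with 56.6 to 87.0 against 479 and 614 CPM in stimulated cells. The genes were picked on these levels, and how many of all genes separate in this way was not counted, so nothing is read from it.

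Compound 10 was compared with DMSO within each state. Every gene of the set had a lower mean level with Compound 10 in both states, from a log2 fold change of -2.85 for Srsf3 to -0.15 for Srsf11 in stimulated cells. In stimulated cells 8 of the 10 passed the threshold as lower, where 11.4% of all 14011 genes did. The same 8 passed as lower in unstimulated cells, against 2.91% of all genes, and Srsf10 and Srsf11 passed in neither. Of the unstimulated calls, those of Srsf2, Srsf7, Tra2a and Tra2b were lost without certain single libraries. Since these contrasts were used to pick the genes, nothing is read from those counts. The median log2 fold change of the 10 was -1.29 in stimulated and -1.27 in unstimulated cells, and that of all tested genes was 0.00 and -0.01.

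Srsf3, the smallest classical SR protein and an adaptor for mRNA export, differed most (chromosome 17, 29032628 to 29043373, plus strand). Its level was 87.0, 56.6 and 83.5 CPM in stimulated Compound 10 cells, against 479 and 614 CPM in stimulated DMSO cells. It was 64.5 and 47.5 CPM in unstimulated Compound 10 cells, against 289 and 269 CPM in unstimulated DMSO cells. The groups were far apart in both states, with 7.22-fold lower counts under the compound in stimulated cells (log2 fold change -2.85, SE 0.23) and 4.98-fold lower in unstimulated cells (-2.32, SE 0.26). Up to 37.6% of the 31-base words of the Srsf3 coding transcript, the unit by which kallisto assigns reads, also occur in 6 other annotated genes. The 4 of these in the tables summed to a mean of 1.86 CPM in stimulated Compound 10 cells and 38.3 in stimulated DMSO cells, nearly all of it Gm9761. Adding them to Srsf3 gave a log2 ratio of group means of -2.91, beside -2.85 without them.

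Srsf1, a shuttling SR protein and the founding member of the family, lies on chromosome 11 (88047373 to 88053755, plus strand). Srsf1 had 26.6, 23.3 and 30.5 CPM in stimulated Compound 10 cells, against 97.5 and 116 CPM in stimulated DMSO cells. It had 19.7 and 18.5 CPM in unstimulated Compound 10 cells, against 67.7 and 64.4 CPM in unstimulated DMSO cells. No library of one treatment reached the range of the other, and the log2 fold changes were -1.99 (SE 0.17) and -1.79 (SE 0.19). Gm11508, the other gene sharing words with it, was at 0 in every library but 1.

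Srsf6 regulates alternative exons in many tissues (chromosome 2, 162931528 to 162937121, plus strand). Its level was 68.0, 53.2 and 52.5 CPM in stimulated Compound 10 cells, against 251 and 255 CPM in stimulated DMSO cells. It was 65.9 and 51.5 CPM in unstimulated Compound 10 cells, against 154 and 148 CPM in unstimulated DMSO cells. With the compound, stimulated and unstimulated cells thus overlapped, while with DMSO stimulated cells stood higher. The log2 fold changes were -2.13 (SE 0.18) in stimulated and -1.37 (SE 0.20) in unstimulated cells.

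Srsf7, another shuttling protein that adapts mRNA for export and holds a zinc knuckle, lies on chromosome 17 (80200080 to 80207307, minus strand). It had 174, 195 and 150.5 CPM in stimulated Compound 10 cells, against 469 and 333 CPM in stimulated DMSO cells. It had 74.7 and 65.0 CPM in unstimulated Compound 10 cells, against 219 and 129 CPM in unstimulated DMSO cells. The DMSO libraries of a state differed from each other by more than the Compound 10 libraries did, and the groups did not overlap. The log2 fold changes were -1.21 (SE 0.24) and -1.32 (SE 0.27).

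Srsf5 (chromosome 12, 80945504 to 80950507, plus strand) had 124, 133 and 133 CPM in stimulated Compound 10 cells, against 248 and 371 CPM in stimulated DMSO cells. It had 72.3 and 76.3 CPM in unstimulated Compound 10 cells, against 182 and 239.6 CPM in unstimulated DMSO cells. Its log2 fold changes were -1.25 (SE 0.20) and -1.50 (SE 0.22), with no overlap in either state.

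Srsf2, an SR protein that stays in the nucleus and also acts in transcription elongation, lies on chromosome 11 (116849901 to 116853094, minus strand). Its level was 444, 336 and 405 CPM in stimulated Compound 10 cells, against 695 and 741 CPM in stimulated DMSO cells. It was 281 and 235 CPM in unstimulated Compound 10 cells, against 448 and 437 CPM in unstimulated DMSO cells. The log2 fold changes were -0.86 (SE 0.19) and -0.78 (SE 0.21), the smallest of the 8. Exons of Mettl23 and Mfsd11 lie across Srsf2 on the opposite strand, and as the labels state no strand for the libraries, reads of these genes cannot be told apart where they overlap. Their summed mean level was 79.7 CPM in stimulated Compound 10 cells and 41.9 in stimulated DMSO cells, and 83.7 in unstimulated Compound 10 cells and 62.0 in unstimulated DMSO cells. With them added, the log2 ratios of group means for Srsf2 were -0.68 and -0.56, beside -0.86 and -0.78 without.

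The TRA2 genes encode activators of weak exons that bind GA-rich enhancers. Tra2a (chromosome 6, 49243924 to 49264033, minus strand) had 15.5, 19.3 and 20.1 CPM in stimulated Compound 10 cells, against 62.5 and 99.2 CPM in stimulated DMSO cells. It had 6.62 and 7.20 CPM in unstimulated Compound 10 cells, against 18.2 and 14.1 CPM in unstimulated DMSO cells. Stimulated Compound 10 cells thus reached about the level of unstimulated DMSO cells, and the log2 fold changes were -2.14 (SE 0.22) and -1.22 (SE 0.26). Tra2b (chromosome 16, 22244549 to 22266005, minus strand) had 176, 217 and 205 CPM in stimulated Compound 10 cells, against 418 and 577 CPM in stimulated DMSO cells. It had 109.6 and 109.0 CPM in unstimulated Compound 10 cells, against 199.997 and 204 CPM in unstimulated DMSO cells. For this gene as well, stimulated Compound 10 cells spanned the level of unstimulated DMSO cells, with log2 fold changes of -1.32 (SE 0.18) and -0.89 (SE 0.21). Of the words of its coding transcripts up to 50.3% occur in 6 other annotated genes, of which the 4 in the tables summed to at most 0.887 CPM in any library.

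Srsf10 and Srsf11 stood apart. Srsf10, which becomes a splicing repressor when it is dephosphorylated (chromosome 4, 135855747 to 135869908, plus strand), had 160.1, 152 and 169.7 CPM in stimulated Compound 10 cells, against 186 and 237 CPM in stimulated DMSO cells. It had 113 and 108 CPM in unstimulated Compound 10 cells, against 137 and 120.5 CPM in unstimulated DMSO cells. The groups did not overlap, yet the log2 fold changes were small, -0.40 (SE 0.17) and -0.23 (SE 0.19), and the unstimulated value turned to 0.21 on the log2(TPM + 1) scale. Srsf11, which helps to include microexons in neurons (chromosome 3, 158010473 to 158036639, minus strand), had 71.5, 104 and 78.4 CPM in stimulated Compound 10 cells, against 87.7 and 100.4 CPM in stimulated DMSO cells. It had 67.9 and 66.0 CPM in unstimulated Compound 10 cells, against 105 and 91.9 CPM in unstimulated DMSO cells. The stimulated groups overlapped and the unstimulated ones did not, with log2 fold changes of -0.15 (SE 0.18) and -0.55 (SE 0.20).

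**Figure D2:**
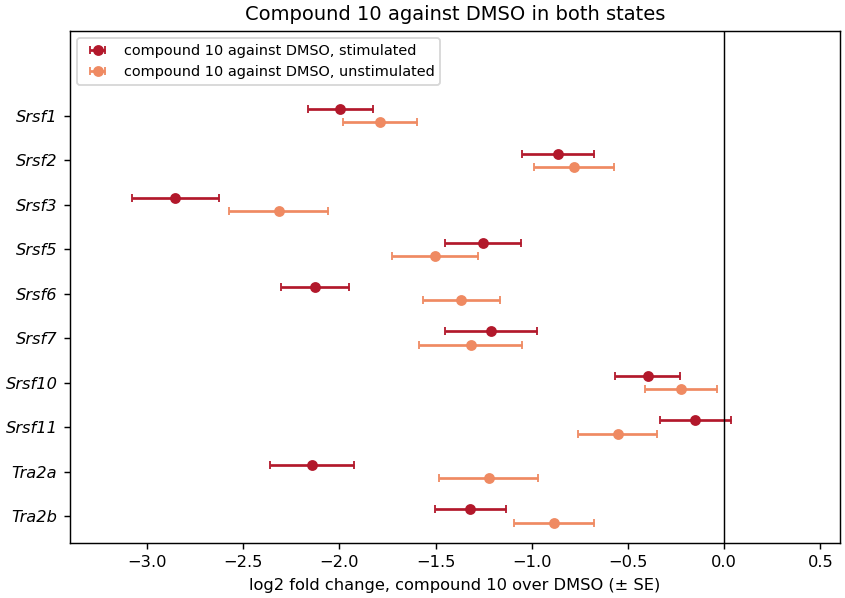
Log2 fold change of gene counts, Compound 10 over DMSO (horizontal axis), with its standard error from the edgeR fit, in stimulated (red, upper point) and unstimulated (orange, lower point) cells. Srsf3 lies furthest left in both states, at -2.85 and -2.32, and Srsf11 in stimulated cells (-0.15) lies nearest 0.

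The compound's log2 fold change was further from 0 in stimulated than in unstimulated cells for Srsf1, Srsf2, Srsf3, Srsf6, Srsf10, Tra2a and Tra2b, and nearer to 0 for Srsf5, Srsf7 and Srsf11. The difference between both states, stimulated minus unstimulated, ran from -0.92 (SE 0.34) for Tra2a and -0.76 (SE 0.26) for Srsf6 to 0.40 (SE 0.28) for Srsf11. Across all genes this difference passed the threshold in 1.03%, of which 0.421% were positive and 0.607% negative, in percent of all genes. It passed in 0 of the 10 genes, so none of them is read as responding differently in the 2 states.

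Stimulation was compared with rest in DMSO cells, and the 2 libraries of stimulated DMSO cells also serve in the comparison of stimulated cells above. Of the 10 genes 8 passed the threshold as higher, where 14.4% of all genes did and 28.1% passed in either direction. Nothing is read from this count, since the levels that picked the genes include these libraries. Tra2a differed most, with a log2 fold change of 2.32 (SE 0.25), followed by Tra2b with 1.30 (SE 0.21), Srsf7 with 1.20 (SE 0.27) and Srsf3 with 0.97 (SE 0.25). Srsf6, Srsf10, Srsf2 and Srsf1 lay between 0.69 and 0.74. Srsf5 had 0.56 (SE 0.22), which was 0.24 without the stimulated DMSO library numbered 2 and 0.36 without the unstimulated one numbered 1, and Srsf11, whose groups overlapped, had -0.06 (SE 0.20).

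The second readout was the form of the transcripts. GENCODE M21 sorts them into protein-coding, nonsense-mediated decay (called decay-annotated here) and retained-intron types, among others. The 10 genes had 26 coding transcripts, 23 retained-intron and 11 decay-annotated ones in the tables, of which 23, 15 and 7 passed the filter. In stimulated cells 11 of the 23 coding transcripts (47.8%) were called lower with Compound 10 and 0 higher, where 3.78% of coding transcripts of all genes and 2.53% of all transcripts were called lower, 2.22% higher and 4.75% either. Of the 15 retained-intron transcripts 1 was called lower, namely Srsf3-205, and of the 7 decay-annotated ones 2 were, Srsf3-201 and Srsf6-201. Median log2 fold changes were -1.34 for the coding, -0.44 for the decay-annotated and 0.35 for the retained-intron transcripts, and 0.01, 0.06 and -0.05 for these types over all genes. In unstimulated cells 5 coding transcripts, Srsf3-205 and the same 2 decay-annotated ones were called lower, against 0.212% of all transcripts, and the medians were -1.53, -0.35 and 0.02. With stimulation in DMSO cells Srsf6-201, Srsf6-204, Srsf10-204, Tra2a-201 and Tra2b-204 were called higher, against 5.43% of all transcripts higher and 8.5% either way, and the processed transcript Srsf10-207 was called lower, against 3.06%. As these libraries served to pick the genes, nothing is read from the counts.

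The share of decay-annotated plus retained-intron forms was taken in percent of these and the coding counts of the gene. It was higher with Compound 10 for Srsf2, Srsf5, Srsf11 and Tra2b in both states, with the limit on Tra2b-206 given above. In each of these genes the mean coding count was lower with Compound 10, and the other forms together differed less on the log scale. For Srsf2 the share was 14.8%, 16.7% and 12.02% in stimulated Compound 10 cells, against 4.24% and 7.34% in stimulated DMSO cells. In unstimulated cells it was 20.3% and 21.9% with Compound 10, against 4.95% and 9.24% with DMSO. The groups did not overlap in either state.

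For Srsf5 the share was 21.3%, 20.8% and 16.9% in stimulated Compound 10 cells, against 6.71% and 8.70% in stimulated DMSO cells. In unstimulated cells it was 34.5% and 29.7% with Compound 10, against 10.2% and 10.7% with DMSO. Its retained-intron counts were level, with means of 21.8 ± 2.23 CPM in stimulated Compound 10 cells and 21.6 ± 10.5 in stimulated DMSO cells, while its coding counts were 97.4 ± 7.28 and 275 ± 73.3 CPM (SD, n = 3 and 2).

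For Tra2b the share was 30.5%, 55.3% and 31.7% in stimulated Compound 10 cells, against 9.44% and 13.6% in stimulated DMSO cells. In unstimulated cells it was 44.4% and 49.3% with Compound 10, against 16.6% and 20.7% with DMSO. The stimulated Compound 10 library numbered 2, which had the least ribosomal RNA, stood above the others, and the log2 change of the ratio of forms was 2.30 (SE 0.52) with it and 1.82 without it. Most of the share came from Tra2b-206, whose deposited length differs from the annotation. Tra2b-206 was at 26.7, 62.9 and 27.6 TPM in stimulated Compound 10 cells and 21.2 and 38.6 TPM in stimulated DMSO cells, with overlap, and its log2 fold change was 0.41 (SE 0.37) with the library numbered 2 and -0.02 without it. The coding Tra2b-201 was low in that same library, at 21.2, 1.41 and 23.9 TPM in stimulated Compound 10 cells against 108 and 115 TPM in stimulated DMSO cells.

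For Srsf11 the share was 73.0%, 73.1% and 81.8% in stimulated Compound 10 cells, against 47.4% and 63.4% in stimulated DMSO cells. In unstimulated cells it was 71.3% and 70.6% with Compound 10, against 32.3% and 41.4% with DMSO. Srsf11 was thus the gene whose total count hardly differed in stimulated cells while its coding counts did, at 20.6 ± 6.99 CPM with Compound 10 and 41.5 ± 6.66 with DMSO. Its retained-intron counts averaged 59.8 ± 12.01 and 48.6 ± 15.7 CPM in the same groups, and 44.7 ± 1.86 and 32.8 ± 2.44 CPM in unstimulated Compound 10 and DMSO cells.

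**Figure D3:**
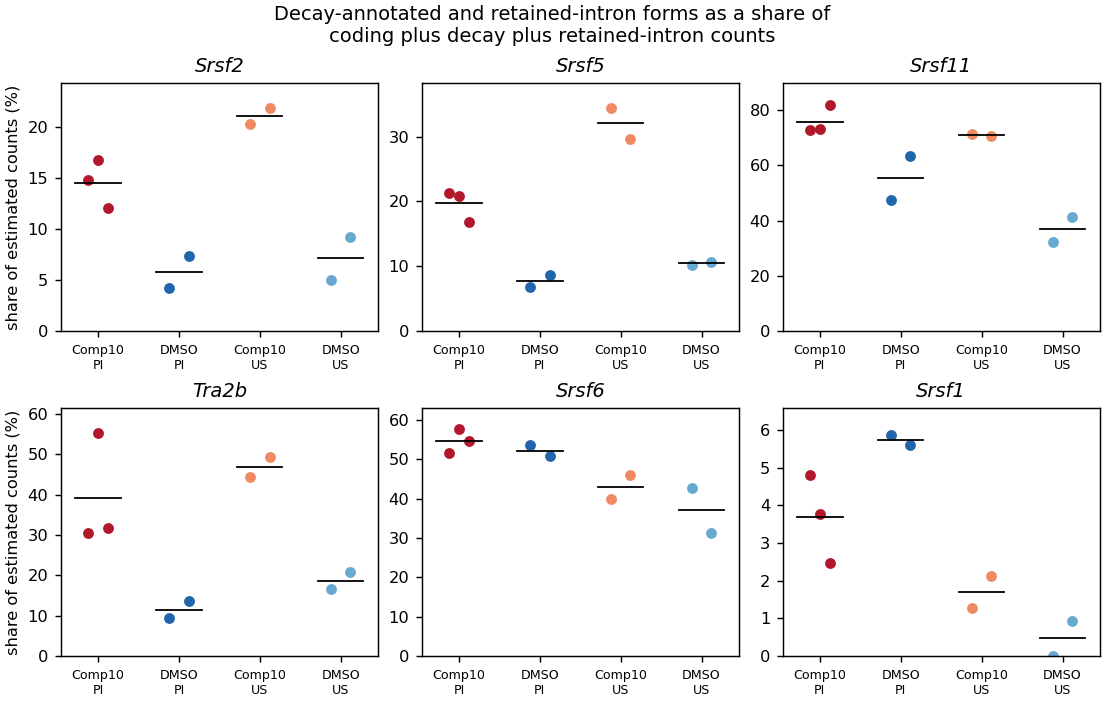
Decay-annotated plus retained-intron counts as a percentage of these plus coding counts (vertical axis, from 0) for 6 genes. Points are libraries and bars group means, with Compound 10 left of DMSO in stimulated and unstimulated cells. In Srsf2, Srsf5, Srsf11 and Tra2b every Compound 10 library lies above every DMSO library of its state, and in Srsf6 the groups overlap. How many of all genes with both kinds of form separate in this way was not counted, so nothing is read from the separation.

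Within each DMSO group the library richer in ribosomal RNA, number 2, had the higher share in all 4 genes, and it still lay below every Compound 10 library of the same state. The part of ribosomal RNA in the shares was not tested. The log2 change of the ratio of forms was 1.51 (SE 0.46) for Srsf2, 1.56 (SE 0.34) for Srsf5, 1.36 (SE 0.43) for Srsf11 and 2.30 for Tra2b in stimulated cells, and that of Srsf11 was 0.89 without the stimulated DMSO library numbered 1. It was 1.87 (SE 0.51), 2.02 (SE 0.38), 2.07 (SE 0.47) and 1.95 (SE 0.56) in unstimulated cells. The size depended on the definition of the ratio. With decay-annotated forms alone it was 0.60 in stimulated and 0.74 in unstimulated cells for Srsf2, and with retained-intron forms alone it was 2.28 and 2.88. The decay-annotated counts of Srsf2 are almost all Srsf2-204, itself lower with Compound 10 (log2 fold change -0.44, SE 0.27, and -0.35, SE 0.30). Its positive ratio thus goes with the lower coding counts. Of the words of Srsf2-204, 0% lie outside the coding transcripts and 71.2% also occur in Mettl23. For Srsf5 in unstimulated cells the log2 change of the ratio was 4.59 with decay-annotated forms alone, which are Srsf5-208 only. Srsf5-208 had 23.6 and 27.0 estimated counts with Compound 10, against 28.4 and 0 with DMSO. That value thus rests on the DMSO library at 0 and the 0.5 added, and the log2 fold change of Srsf5-208 itself was 0.56 (SE 1.40). Over all 4285 genes with both kinds of form, the ratio's median change was 0.05 in each state and 0% of genes passed the threshold in limma. Unadjusted p-values under 0.05 were found for 431 of these genes in stimulated and 317 in unstimulated cells. With stimulation in DMSO cells 0.233% of these genes passed, 0.07% towards more of the other forms and 0.163% towards fewer.

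Srsf6 and Srsf1 gave no such pattern in both states when all other forms were counted. For Srsf6 the share was 51.5%, 57.7% and 54.5% in stimulated Compound 10 cells and 53.6% and 50.7% in stimulated DMSO cells, and the unstimulated groups, with 39.8% and 46.0% against 42.7% and 31.3%, overlapped too. Its decay-annotated form Srsf6-201 was lower together with the coding Srsf6-203, by log2 fold changes of -2.20 (SE 0.19) and -2.20 (SE 0.23) in stimulated cells. Of the 31-base words of Srsf6-201, 7.95% lie outside the annotated coding transcripts, one of which, Srsf6-202, was at 0 TPM in every library. With retained-intron forms alone the log2 change of the Srsf6 ratio was 3.13 in stimulated and 4.79 in unstimulated cells, beside 0.14 (SE 0.34) and 0.37 (SE 0.37) with both kinds. Srsf6-204, a retained-intron form at low level with 40.8% of such words, was at 1.20 and 1.22 TPM in unstimulated Compound 10 cells, against 0.148 and 0.0829 TPM in unstimulated DMSO cells. In stimulated cells it was at 0.999, 1.01 and 0.537 TPM with Compound 10 and 0.324 and 0.621 TPM with DMSO, with overlap (0.87, SE 0.48). For Srsf1 the share was small, with 4.82%, 3.78% and 2.47% in stimulated Compound 10 cells against 5.88% and 5.59% in stimulated DMSO cells, and 1.27% and 2.13% in unstimulated Compound 10 cells against 0% and 0.937% in unstimulated DMSO cells.

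For these 4 genes a coding and a retained-intron transcript are given by name. Srsf2-201, the main coding form, was at 168, 137 and 143 TPM in stimulated Compound 10 cells, against 322 and 315 TPM in stimulated DMSO cells. Srsf2-203, which keeps an intron, was at 21.7, 20.2 and 14.0 TPM in stimulated Compound 10 cells, against 5.41 and 11.8 TPM in stimulated DMSO cells. In unstimulated cells Srsf2-203 was at 23.6 and 23.7 TPM with Compound 10, against 5.21 and 7.78 TPM with DMSO. The coding form was thus lower (log2 fold change -1.03, SE 0.18) and the intron-keeping form higher (1.17, SE 0.43, and 1.72, SE 0.47, in unstimulated cells) in the same libraries. Without a stimulated DMSO library the value of Srsf2-203 in stimulated cells was 0.71 (number 1 left out) or 1.83 (number 2 left out). Of the words of Srsf2-203, 56.7% lie outside the coding transcripts and 24.7% also occur in transcripts of other genes.

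Srsf11-219, a retained-intron form with 82.3% of its words outside the coding transcripts, had the highest mean TPM of the Srsf11 transcripts over all 9 libraries, though in unstimulated DMSO cells the coding Srsf11-202 was higher. It was at 17.6, 32.4 and 19.4 TPM in stimulated Compound 10 cells and 14.8 and 20.1 TPM in stimulated DMSO cells, and the groups overlapped. In unstimulated cells it was at 19.7 and 22.0 TPM with Compound 10, against 16.1 and 9.75 TPM with DMSO. The coding Srsf11-202 was at 4.47, 5.80 and 2.32 TPM in stimulated Compound 10 cells, against 11.4 and 10.1 TPM in stimulated DMSO cells, and its log2 fold change was -1.34 (SE 0.30). In unstimulated cells Srsf11-202 was at 7.01 and 5.86 TPM with Compound 10, against 26.8 and 14.8 TPM with DMSO.

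Srsf5-209, which retains an intron and has 64.0% of its words outside the coding transcripts, was level. It was at 4.82, 5.71 and 4.11 TPM in stimulated Compound 10 cells and 3.46 and 6.40 TPM in stimulated DMSO cells, and its log2 fold change was 0.02 (SE 0.29). The coding Srsf5-201 was at 20.7, 25.2 and 23.9 TPM in stimulated Compound 10 cells, against 64.4 and 80.0 TPM in stimulated DMSO cells (-1.57, SE 0.17). Among the other coding forms of Srsf5, log2 fold changes in stimulated cells were -1.47 for Srsf5-203, -1.41 for Srsf5-202 and -1.59 for Srsf5-205. Tra2b-203, a retained-intron form with 88.9% of its words outside the coding transcripts, was at 2.64, 7.70 and 3.88 TPM in stimulated Compound 10 cells and 2.16 and 4.85 TPM in stimulated DMSO cells, with overlap. The coding Tra2b-204 was at 21.2, 24.3 and 20.2 TPM in stimulated Compound 10 cells, against 56.9 and 76.5 TPM in stimulated DMSO cells (-1.56, SE 0.15).

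**Figure D4:**
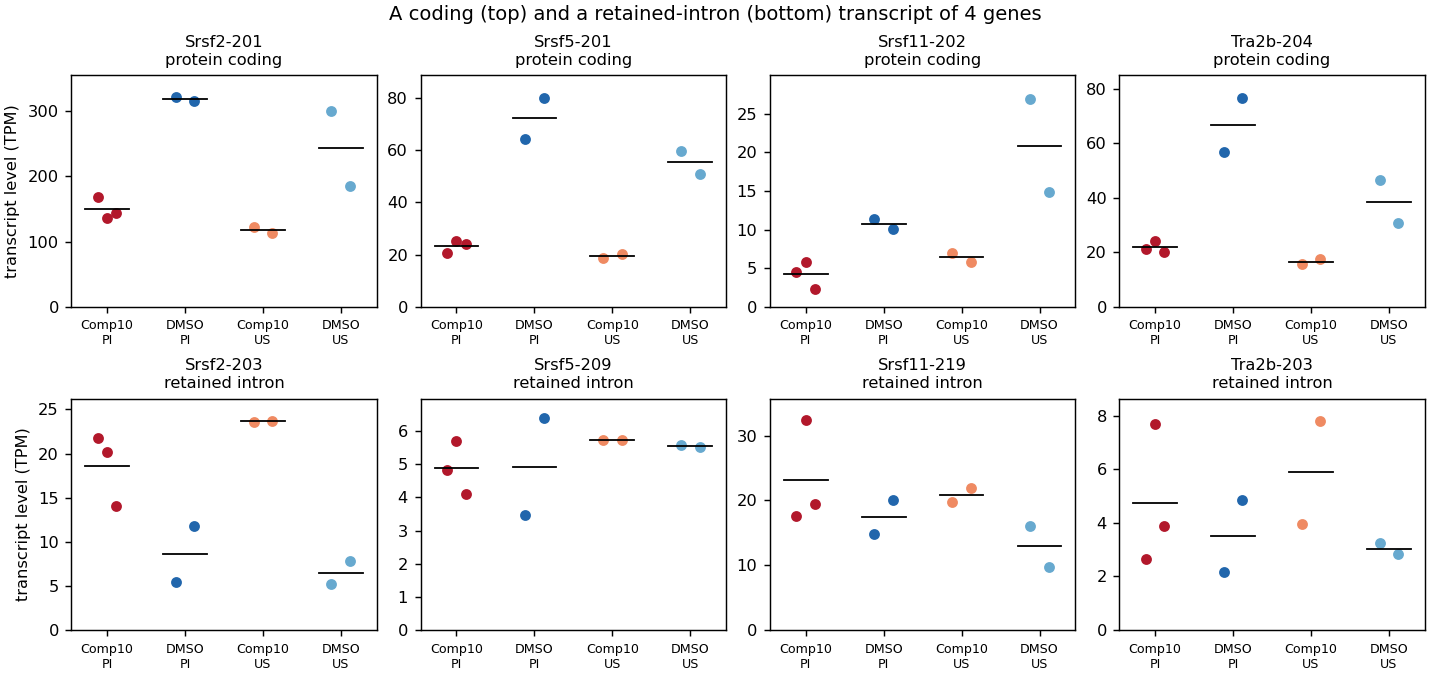
Levels in TPM (vertical axes, from 0) of 4 coding transcripts (top row) and a retained-intron transcript of the same gene (bottom row) in every library; bars are group means. In the top row the Compound 10 libraries lie below the DMSO libraries of their state, and in the bottom row they lie above them for Srsf2-203, such as 23.6 and 23.7 against 5.21 and 7.78 TPM in unstimulated cells, and for the other 3 they overlap in stimulated cells and lie above by smaller margins in unstimulated cells.

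Retained-intron and decay-annotated transcripts differ in how much of their sequence lies outside the coding transcripts of the gene. Words outside those can still occur in the gene's other forms or in other genes, so they do not mark a form alone. Of all words, 24.7% of Srsf2-203, 15.7% of Srsf5-209 and 4.61% of Srsf11-219 occur in other genes. Of the 18 such transcripts that passed the filter with an unchanged length, 6 had at least 50% of their 31-base words outside the coding transcripts of the gene, namely Srsf2-203, Srsf5-209, Tra2b-203, Srsf11-203, Srsf11-208 and Srsf11-219. Their log2 fold changes ran from -0.31 to 1.17 in stimulated cells, with a median of 0.40. Positive values were found in 5 of 6, and in 2342 of 4927 tested retained-intron transcripts of all genes. None of the 6 passed the threshold in either state, and Srsf11-203, Srsf11-208 and Srsf11-219 are forms of 1 gene. The positive signs of Srsf5-209 and Tra2b-203 rest on the stimulated DMSO library numbered 1, without which they had -0.36 and -0.01. Srsf11-208, the negative one, had -0.67 without that library and 0.17 without the one numbered 2. In unstimulated cells the 6 ran from -0.05 to 1.72, with a median of 0.47. There 5 of 6 were positive, and 2503 of 4927 over all genes. Srsf11-208 was at -0.30 without the unstimulated DMSO library numbered 1. The other 12 ran from -2.94 to 1.45 in stimulated cells, with a median of -0.15, and they include Srsf2-204, which has 0% of such words. The split at 50% was made after the values were seen.

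**Figure D5:**
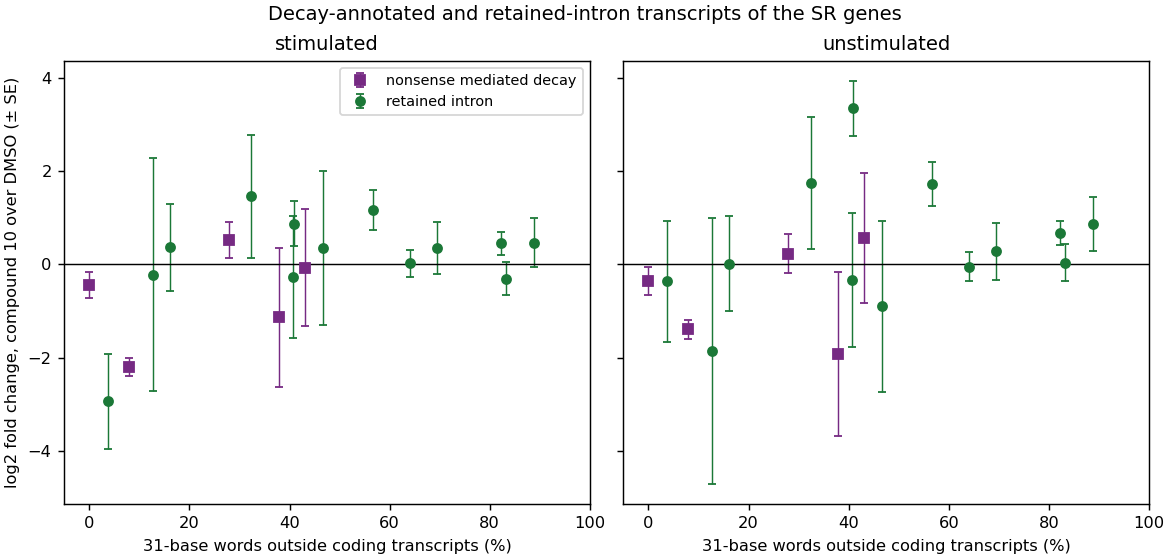
Log2 fold change, Compound 10 over DMSO (vertical axis, with standard error), of the 18 decay-annotated (squares) and retained-intron (circles) transcripts against the percentage of their 31-base words outside coding transcripts of the gene (horizontal axis), in stimulated (left) and unstimulated (right) cells. Transcripts with at least 50% of such words lie between -0.31 and 1.72, and those with fewer spread from -2.94 to 3.34.

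The transcripts of Srsf3 are given by name only. Srsf3-202, its coding transcript, was at 2.01, 1.25 and 3.01 TPM in stimulated Compound 10 cells, against 32.3 and 39.6 TPM in stimulated DMSO cells. Srsf3-201 was at 25.9, 18.1 and 20.5 TPM in stimulated Compound 10 cells, against 110.4 and 140.1 TPM in stimulated DMSO cells. Srsf3-205 was at 10.5, 10.2 and 11.4 TPM in stimulated Compound 10 cells, against 170.2 and 191 TPM in stimulated DMSO cells. All 3 were lower by large folds, with log2 fold changes of -4.02 (SE 0.41), -2.47 (SE 0.25) and -3.99 (SE 0.30). In unstimulated cells these were -4.07 (SE 0.49), -1.96 (SE 0.28) and -3.33 (SE 0.35). Srsf3-204, listed at 3986 bases, with 65.3% of its words outside the coding transcript in GENCODE M21, was at 2.68, 1.76 and 2.00 TPM in stimulated Compound 10 cells and 2.08 and 3.41 TPM in stimulated DMSO cells, with overlap (-0.29, SE 0.33).

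Srsf7 and Tra2a had 1 coding transcript each in the tables and give no ratio of forms. Srsf7-201 had a log2 fold change of -1.22 (SE 0.27) in stimulated cells, and Tra2a-201 had -2.15 (SE 0.23). For Srsf1, the coding Srsf1-201 was at 1.59, 0.494 and 1.73 TPM in stimulated Compound 10 cells, against 14.4 and 20.2 TPM in stimulated DMSO cells. The longer coding Srsf1-205 was at 2.96, 3.49 and 3.08 TPM in the same Compound 10 cells, against 7.05 and 5.86 TPM in stimulated DMSO cells. Both coding forms were lower, Srsf1-201 by a log2 fold change of -3.67 (SE 0.63) and Srsf1-205 by -0.98 (SE 0.18). The retained-intron form Srsf1-203, of whose words 3.70% lie outside the coding transcripts, was at 1.59, 0.567 and 0.784 TPM in stimulated Compound 10 cells, against 8.12 and 8.12 TPM in stimulated DMSO cells.

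Srsf10 had no transcript of the decay-annotated or retained-intron types in the tables. Its main coding form Srsf10-204 was at 22.4, 17.2 and 19.0 TPM in stimulated Compound 10 cells, against 27.4 and 32.3 TPM in stimulated DMSO cells (-0.55, SE 0.20). Srsf10-207, annotated as a processed transcript without a reading frame, was named after its values were seen. It was at 13.8, 22.5 and 13.4 TPM in stimulated Compound 10 cells, against 2.47 and 0.949 TPM in stimulated DMSO cells. In unstimulated cells it was at 32.7 and 39.9 TPM with Compound 10, against 26.5 and 17.3 TPM with DMSO. Its level in DMSO cells was thus lower with stimulation (log2 fold change -3.39, SE 0.46), and in stimulated cells it was higher with Compound 10 (3.35, SE 0.44). Of its words 65.5% lie outside the coding transcripts.

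Other genes of the SR pathway were taken from lists drawn up by function, with earlier results of these data known. Their counts of calls and p-values are therefore given as descriptions. The other SR family genes, Srsf4, Srsf9 and Srsf12, gave 0 of 3 calls in either state, by edgeR's quasi-likelihood test and by DESeq2, and 1 of 3 in stimulated and 0 of 3 in unstimulated cells had an unadjusted p under 0.05. Srsf4 had log2 fold changes of -0.42 (SE 0.15, edgeR adjusted p = 0.0683) and -0.22 (SE 0.17), and Srsf9 had -0.21 (SE 0.20) and 0.08 (SE 0.22). Srsf12 was near the floor, at a mean of 0.654 CPM in stimulated Compound 10 cells and 0.24 CPM in stimulated DMSO cells.

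Among 30 SR-related splicing proteins, 4 fell and 1 rose with Compound 10 in stimulated cells, where 23.1% of all genes passed in either direction, and the list's median log2 fold change was -0.30. Luc7l3, a relative of a U1 snRNP subunit, fell by 1.62 on the log2 scale (SE 0.29, edgeR adjusted p = 0.0022), and Bclaf1, an RNA-binding protein of splicing complexes, fell by 1.10 (SE 0.19, edgeR adjusted p = 0.0013). U2af1, which reads the 3′ splice site, fell by 0.76 in stimulated (SE 0.16, edgeR adjusted p = 0.0054) and by 0.82 in unstimulated cells (SE 0.18, edgeR adjusted p = 0.0212). Ppig, a cyclophilin with an SR-like tail, fell in stimulated cells (-0.89, SE 0.21), and Rsrc1 rose (1.06, SE 0.36, edgeR adjusted p = 0.0499). In unstimulated cells 2 of 30 fell, U2af1 and Bclaf1, where 7.36% of all genes passed.

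The kinases that phosphorylate SR tails and the importin Tnpo3, which carries SR proteins into the nucleus, gave 1 higher and 2 lower of 10 in stimulated cells, where 11.7% of all genes were higher and 11.4% lower. Srpk2 averaged 54.5 ± 6.60 CPM in stimulated Compound 10 cells and 26.0 ± 3.04 in stimulated DMSO cells (log2 fold change 1.07, SE 0.18, edgeR adjusted p = 0.0011). Tnpo3 averaged 22.4 ± 1.06 and 46.1 ± 5.05 CPM in the same groups (-1.04, SE 0.16, edgeR adjusted p = 0.0007), and Dyrk1a, a nuclear kinase, fell too (-0.85, SE 0.17). Clk1, Clk2, Clk3 and Clk4 passed in neither state, with log2 fold changes of -0.05, 0.33, 0.53 and -0.11 in stimulated cells. In unstimulated cells 1 of 10 passed, against 7.36% of all genes, namely Dyrk1b, which fell by 1.67 (SE 0.33).

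Of 14 nonsense-mediated decay factors 2 rose and 0 fell in stimulated cells, a share below the 23.1% of all genes called there. They were Upf3a (0.78, SE 0.20, edgeR adjusted p = 0.0124) and Smg9 (0.59, SE 0.19, edgeR adjusted p = 0.0424), and the list's median log2 fold change was -0.02. Upf1, the central helicase, had -0.78 (SE 0.28) and missed the threshold. In unstimulated cells 0 of 14 passed in edgeR and in DESeq2, and 2 of 14 had an unadjusted p under 0.05. Of 6 exon junction complex genes, whose proteins mark spliced junctions, 3 fell in stimulated cells, where 11.4% of all genes fell, namely Eif4a3 (-0.56, SE 0.18), Magoh (-0.62, SE 0.18) and Magohb (-1.30, SE 0.41). Leaving out 1 library at a time, the count of exon junction calls fell in at least 4 fits and that of decay factors in at least 6. Among these were the fits without the stimulated DMSO library numbered 1 for exon junction genes and numbered 2 for decay factors. In unstimulated cells 0 of 6 passed in edgeR and in DESeq2, and 2 of 6 had an unadjusted p under 0.05.

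Of 23 hnRNP genes, a family of RNA-binding proteins that often oppose SR proteins, 9 fell and 1 rose in stimulated cells, where 11.4% of all genes fell and 11.7% rose. In unstimulated cells 2 fell, where 2.91% of all genes fell and 7.36% passed in either direction. Hnrnpa2b1 averaged 518 ± 81.6 CPM in stimulated Compound 10 cells and 1697 ± 357 in stimulated DMSO cells (log2 fold change -1.71, SE 0.21). Hnrnpu fell by 1.44 (SE 0.16), Hnrnpm by 1.42 (SE 0.18) and Syncrip by 1.37 (SE 0.15), with edgeR adjusted p-values of 0.0001, 0.0002 and 0.0001. In no list did the ratio of decay-annotated plus retained-intron to coding forms pass in limma in either state.

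The genes whose pattern over the 4 groups was nearest to that of Srsf3 were Gbp4, Plagl1, Gm15793, Adssl1 and Fam83d. Likeness was the root mean square difference between the 4 group means of log2 CPM, each centred on the gene's own mean, and was 0.17 for Gbp4, 0.23 for Plagl1, 0.28 for Gm15793, 0.28 for Adssl1 and 0.36 for Fam83d. Gbp4, a guanylate-binding protein gene, averaged 28.8 CPM in stimulated Compound 10 cells, 198 in stimulated DMSO cells, 17.5 in unstimulated Compound 10 cells and 77.6 in unstimulated DMSO cells. Gm15793 was near the floor, with a group mean of at most 0.655 CPM. Adssl1 was low with Compound 10, at 0.813 CPM in stimulated and 0.616 CPM in unstimulated cells. Among the 10 genes Srsf1 (0.37) and Srsf6 (0.46) lay nearest to Srsf3 and Srsf11 (1.18) furthest, and the median over tested genes was 1.42.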

How the data were processed

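Per the labels' protocols, Qiagen kits gave the RNA and a Clontech SMART-seq kit the libraries. The submitters' processing notes name cutadapt, kallisto and mm10; their versions, the annotation and the strand were not given in the sources used here. Deposited tables hold estimated counts and TPM for 109617 transcripts, not scaled between libraries, per the file headers. By identifier, 108214 of these matched GENCODE M21 without version (63964 with it).

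Estimated counts, rounded, were taken per transcript or summed per gene. All 9 libraries entered 1 model with a coefficient per group, after filterByExpr and TMM scaling, in edgeR 4.0.16 and R 4.3.3 (quasi-likelihood, two-sided, Benjamini-Hochberg over 14011 genes or 29763 transcripts, threshold 0.05). CPM use TMM-scaled totals. Dividing a log2 fold change by the root of its F gave its SE. Biological variation between libraries (coefficient, common to all features) was 0.244 for genes and 0.603 for transcripts. The ratio of decay-annotated plus retained-intron to coding counts, with 0.5 added to each, was fitted with limma 3.58.1 in genes with a mean of at least 50 counts. Words of 31 bases came from the GENCODE M21 transcripts, and coding ones were counted whether expressed or not. Library numbers were not taken as pairs.

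The 10 genes, the lists and the markers were chosen with earlier results of these data known. Named transcripts are at most 4 per gene by mean TPM, plus the leading decay-annotated or retained-intron form. Named list genes are at most 4 per list with the smallest p, and all other SR family genes. Rsrc1, the Clk genes, Srsf11-203 and Srsf10-207 fall outside that rule and were named after their values were seen. Alternatives were median-of-ratios scaling, other filters, DESeq2 1.42.0, limma on log2(TPM + 1), a block for library number, ribosomal RNA left out, other definitions of the ratio, and leaving out libraries.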

Additional observations from a re-analysis of the deposited data

Results flagged for a closer look

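The effect of Compound 10 differed between stimulated and unstimulated cells for 2 hnRNP genes named above, by the interaction term of edgeR's quasi-likelihood fit. Hnrnpu had a log2 fold change of -1.44 in stimulated and 0.47 in unstimulated cells, a difference of -1.91 (SE 0.24, adjusted p = 0.0031). Syncrip had -1.37 and -0.16, a difference of -1.21 (SE 0.22, adjusted p = 0.0247).

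The share of decay-annotated and retained-intron forms of Srsf1 was lower in every stimulated Compound 10 library than in the stimulated DMSO libraries, and higher in both unstimulated Compound 10 libraries than in the unstimulated DMSO libraries. The effects differed by -3.27 percentage points, and this difference was not tested. The retained-intron counts behind the unstimulated shares averaged 0.292 CPM with Compound 10 and 0.302 CPM with DMSO.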

How the results depend on the processing

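The 10 genes kept a negative log2 fold change with Compound 10 in both states under all 17 alternatives, except Srsf10 in unstimulated cells (0.21 on log2(TPM + 1)). Because the same libraries picked the genes, the calls held below are listed as a description only. The share of calls held among all genes was not counted. In stimulated cells all 8 calls of lower levels held under these except that of Srsf7 on log2(TPM + 1). In unstimulated cells the call held for Srsf1, Srsf3 and Srsf5 under all 17, for Srsf6 under 16, Srsf7 and Tra2a 13, Tra2b 11 and Srsf2 8. All of Srsf2, Srsf7, Tra2a and Tra2b lost it without either unstimulated Compound 10 library or without the unstimulated DMSO library 1. Calls of higher levels with stimulation in DMSO cells held under 17 for Tra2a and Tra2b, 15 for Srsf7, 13 for Srsf1, Srsf3 and Srsf10, 12 for Srsf6 and 11 for Srsf2. Of 510 alternative values of the 10 genes 41 moved beyond the spread and 3 changed sign. For their transcripts these were 78 and 36 of 1188, and for the ratio of forms 23 and 4 of 354; the cause was not tested.

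Counts of calls moved more. Main counts were 3234 genes (stimulated), 1031 (unstimulated), 3940 (stimulation in DMSO) and 144 (difference between states), 1413, 136 and 2529 transcripts, and 0, 0 and 10 ratios of forms. On log2(TPM + 1) they were 1195, 231 and, for the difference, 22 genes; in stimulated cells 1 SR-related gene and 0 kinases, decay factors and exon junction genes passed, and in unstimulated cells 1 other SR gene, 1 hnRNP gene and 0 SR-related genes and kinases. With no filter 1569 genes passed in unstimulated cells and 512 for the difference, and 2 kinases in unstimulated cells. With at least 10 CPM, 5 kinases passed in stimulated cells and 239 genes for the difference. DESeq2 gave 2 kinases in unstimulated cells and 454 genes for the difference. Median-of-ratios scaling gave 1 decay factor in stimulated cells, and leaving out ribosomal RNA 1 SR-related gene in unstimulated cells.

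Without both DMSO libraries rich in ribosomal RNA, chosen after seeing the data, 1827, 295 and 1597 genes passed, and 13 for the difference. The lists then gave 1 other SR gene, 2 SR-related genes, 0 decay factors and 1 exon junction gene in stimulated cells, and 0 SR-related and 0 hnRNP genes in unstimulated cells. For the ratio of forms a pseudocount of 5 gave 4 genes in stimulated cells and 51 with stimulation, a minimum of 200 counts gave 1, decay-annotated forms alone gave 7 and 4, TPM gave 6 with stimulation, and only transcripts of unchanged length (an alternative added after seeing the data) gave 5.

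With a block for library number, which leaves the third Compound 10 library without a partner, 43 genes passed for the difference, 156, 0 and 1574 transcripts, 0 ratios with stimulation, 1 decay factor and 0 exon junction genes in stimulated cells, and 1 SR-related and 0 hnRNP genes in unstimulated cells. Deviations of same-numbered libraries correlated at -0.10 to 0.28 over the 6 pairs of groups (0.14 between stimulated, -0.10 between unstimulated, 0.28 between DMSO and 0.18 between Compound 10 groups). The labels do not say that a number marks a shared mouse or batch, and the numbers were not taken as pairs.

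Leaving out 1 library at a time, genes ranged over 1973 to 3167 (fewest without the stimulated DMSO library 2), 174 to 1457 (fewest without the unstimulated Compound 10 library 1), 2425 to 4347 and, for the difference, 29 to 264. Transcripts ranged over 250 to 984, 0 to 89 and 949 to 2656, and ratios over 0 to 2, 0 to 5 and 0 to 10. In stimulated cells the lists ranged over 0 to 1 other SR genes, 3 to 7 SR-related genes, 3 to 4 kinases, 0 to 2 decay factors, 0 to 3 exon junction genes and 5 to 10 hnRNP genes. In unstimulated cells they ranged over 0 to 2 SR-related genes, 0 to 2 kinases and 0 to 2 hnRNP genes, with 0 in the other lists. A lone library left in a group is assumed to vary like the others. Depth limits Srsf12 and the minor forms of Srsf1 and Srsf6.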
